A study of Mus musculus with 57 samples.

Results

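The genes described here encode the nuclear subunits of the mitochondrial respiratory chain and of ATP synthase. They were taken by name from the deposited count table, as every target named as an Nduf A, B, C, S or V subunit with a number, as Sdha to Sdhd, or beginning with Uqcr, Cox4 to Cox8 or Atp5. The rule found 78 of 9780 targets. Of these, 36 belong to complex I, 4 to complex II, 6 to complex III, 15 to complex IV and 17 to complex V. Ndufa4 bears a complex I name but is now regarded as a complex IV subunit and was counted there. Mitochondrially encoded subunits are outside the name rule and were not analysed here.

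The respiratory chain sits in the inner mitochondrial membrane. Complex I takes electrons from NADH and complex II takes them from succinate, ubiquinone carries them to complex III, cytochrome c carries them to complex IV, and complex IV reduces oxygen. Complexes I, III and IV pump protons, and complex V, the ATP synthase, uses the proton gradient to make ATP. Pancreatic acinar cells spend much ATP on making and secreting digestive enzymes, and mitochondrial failure is a known feature of acinar injury in pancreatitis.

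The tissue was pancreas of C57BL/6 mice, wild type as far as the labels say, aged 8 to 9 weeks. Pancreatitis was induced with caerulein, an analogue of cholecystokinin that overstimulates acinar cells, injected intraperitoneally every hour for 8 hours on 2 consecutive days. The groups were pancreas at 3 hours (3 regions), 12 hours (6), 24 hours (6), 48 hours (5), 72 hours (4), 5 days (6), 7 days (6), 14 days (7) and 30 days (7) of caerulein-induced pancreatitis, and control pancreas (7 regions), for 57 regions in all. The sources used here do not say whether the times count from the first or the last injection, or whether controls received vehicle. Formalin-fixed cores lay in 2 tissue blocks of 12 cores, called arrays below, each with every time point, and regions of 650 by 650 µm were read with the GeoMx Whole Transcriptome Atlas, in which probes are hybridised to RNA in the section and their barcodes are released by light and sequenced. Each tissue sample gave 2 to 4 regions. The array 1 region at 72 hours had a listed area of 509054 µm², against 421366 µm² for the other regions.

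A region had 36264864 to 167668771 raw reads, which gave 1036609 to 5035488 counts over the targets. The pooled negative-probe value, which measures background, ran from 42.1 to 186 counts. Levels below are the count of a target over that value in the same region, and a target was called above background in a region at over 2 times it. Since no label says which regions share an animal, counts were summed over the regions of 1 group on 1 array, giving 20 sums, 2 per group. The sums were fitted together with edgeR's quasi-likelihood test with group and array as terms and TMM scaling, which assumes that most targets do not change. P-values were adjusted over the 2688 targets that exceeded 2 times background in at least 3 regions, and a target was called at an adjusted p under 0.05. These p-values measure only the spread between the sums, since nothing in the labels says that the arrays hold different animals. A region holds several cell types, so fewer cells of a type and less RNA per cell cannot be told apart.

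The mean level of 20 acinar enzymes, which mark the labelled tissue, was 72.1 to 114 times background at 12 hours against 191 to 321 times in control regions, with 19 of the 20 enzymes called lower. At the same time 9 of 10 tested ductal and metaplasia markers were called higher, their mean level being 14.0 to 30.3 times background at 12 hours against 1.44 to 1.63 in control regions. Of 10 tested fibroblast markers 7, and of 11 tested macrophage and leukocyte markers 4, were called higher at 12 hours. Of 5 tested islet markers 4 were called higher and 1 lower at 12 hours, with a mean level per region of 1.30 to 54.8 times background. No endothelial marker was high enough to be tested, neither of 2 tested adipocyte markers was called, and the muscle marker Mb and the erythrocyte marker Hba-a1 were called lower. The regions held 1275 to 1623 nuclei at 12 hours against 585 to 1191 in control pancreas. At 24 hours all 10 tested fibroblast markers, 9 ductal and metaplasia markers and 8 macrophage and leukocyte markers were called higher, and 19 acinar enzymes, with a mean level of 23.2 to 82.1, were called lower. Of the remaining lists at 24 hours, 1 islet marker, 1 adipocyte marker and Mb were called lower, and Hba-a1 was not called. The marker lists called at 12 and 24 hours move with the results below, and their part in them was not tested.

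Relative to the negative probes, respiratory chain signal was highest at 12 and 24 hours. Averaged over the 78 members, the level was 2.23 ± 0.112 times background at 12 hours (SD, n = 6) and 2.13 ± 0.222 at 24 hours (SD, n = 6), against 1.56 ± 0.0790 in control regions (SD, n = 7). The 12-hour regions ran from 2.10 to 2.40 and the control regions from 1.42 to 1.68, so the groups did not overlap. At 3 hours the mean was 1.77 ± 0.353 (SD, n = 3), and at 48 hours 1.73 ± 0.162 (SD, n = 5). From 72 hours to 30 days the group means lay between 1.62 and 1.68, and each of these groups overlapped the control range. On this ratio scale the highest group mean was that of 12 hours for 54 members, of 24 hours for 21, of 48 hours for 2 and of 7 days for 1. In CPM after TMM scaling it was that of 12 hours for 32 members, of 24 hours for 7, of 48 hours for 6, of 72 hours for 2, of 7 days for 12, of 14 days for 9, of 30 days for 4 and of control for 6. These counts were not made over all targets. Scaled to the negative probes, 87.4% of all tested targets had a positive log2 difference from control at 12 hours and 88.2% at 24 hours. A rise on that scale was thus not particular to the members.

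**Figure D1:**
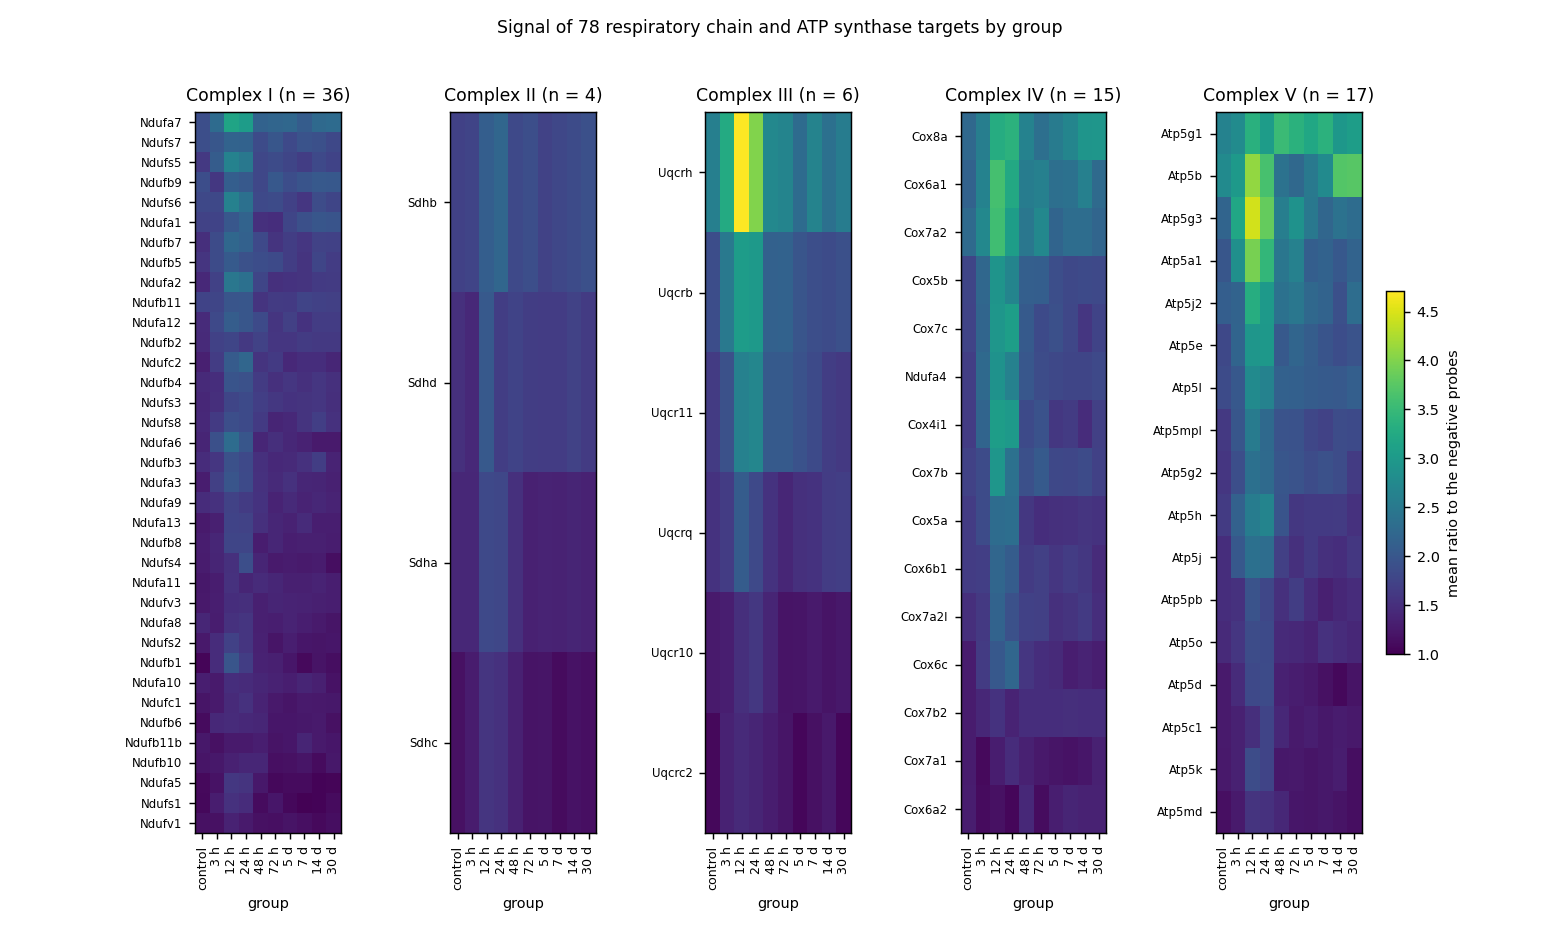
Mean level of each of the 78 members in each group, as the ratio of its count to the negative probes (colour, brighter for higher), by complex and, within a complex, from the highest to the lowest mean. The 12-hour and 24-hour columns are the brightest, and 18 members exceed 2 times background in no region of any group.

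The members fell into 3 classes by detection. A total of 18 exceeded 2 times background in no region, among them the complex I core subunits Ndufv1 and Ndufs1, Sdhc, a membrane anchor of complex II, and the muscle or testis isoforms of complex IV. Another 7 did so in 1 or 2 regions. The remaining 53 were tested, but 20 of them reached the criterion only through regions of 12 and 24 hours, and 33 would have passed without those groups. A member that passed only through the groups where it is high had to differ, so counts over the tested members are descriptions. The number of members above background in the majority of the regions of a group was 36 of 78 at 12 hours, 32 at 24 hours and 9 in control regions. Over all 9780 targets it was 1410 at 12 hours, 1392 at 24 hours and 603 in control regions.

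Each member was read by 1 probe, and 74 of the probes had 1 annotated genome position. The Cox7c and Ndufs5 probes had 2 annotated positions and the Ndufb4 probe had 3, so signal from near-identical copies cannot be told apart for these genes. Ndufb1 had no position in the file. Probes differ in how well they bind, so levels are compared between groups for 1 gene and never between genes as amounts of RNA.

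Promoter windows were looked up to show what the members share outside the name rule. RefSeq windows on GRCm38.p6, from 250 bases before to 50 after the annotated start, were matched by gene identifier for 65 of 78 members. Both strands were searched for the palindromic NRF1 motif, the ETS motif CCGGAAG bound by the GABP factor, the YY1 motif AAGATGGCG, the SP1 motif GGGCGG and the TATA motif TATAAA. NRF1, GABP and YY1 are factors known for control of respiratory chain genes. Shares are of genes with a match in any of their windows, and a gene can have several. The NRF1 motif stood in 6.15% of members with a window, 1.90% of 7836 measured targets with a window and 1.07% of all 27025 genes with one. The ETS motif stood in 26.2% of these members, 17.6% of these measured targets and 9.93% of all these genes. The YY1 motif stood in 10.8% of these members, 2.95% of these measured targets and 1.64% of all these genes. The SP1 motif was in 40.0%, 60.8% and 38.2% of these sets, and the TATA motif in 10.8%, 11.8% and 15.7%. An ETS match overlapped an SP1 match in 1 member, and no other pair of motifs overlapped in a member. Matches are letters in a window and were not read as binding sites.

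The windows below belong to chosen members, some of them picked for their motif matches, so they do not show how common a motif is. They are shown 5′ to 3′ on the gene's strand with motif matches in capitals. Atp5g3, Atp5g1 and Atp5g2 encode the same mature ring subunit of ATP synthase, and they differ below in which settings called them at 12 hours. Uqcrh is a called member of complex III, and Atp5j and Cox6a1 show YY1, ETS and NRF1 matches.
Atp5g3, chr2:73911277-73911576, minus strand: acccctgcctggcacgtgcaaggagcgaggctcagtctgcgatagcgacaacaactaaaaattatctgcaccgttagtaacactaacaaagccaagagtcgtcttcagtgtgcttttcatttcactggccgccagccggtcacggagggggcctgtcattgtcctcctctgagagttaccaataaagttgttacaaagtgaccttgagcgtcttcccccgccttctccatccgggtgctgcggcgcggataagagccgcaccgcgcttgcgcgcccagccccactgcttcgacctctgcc
Atp5g1, chr11:96075582-96075881, minus strand: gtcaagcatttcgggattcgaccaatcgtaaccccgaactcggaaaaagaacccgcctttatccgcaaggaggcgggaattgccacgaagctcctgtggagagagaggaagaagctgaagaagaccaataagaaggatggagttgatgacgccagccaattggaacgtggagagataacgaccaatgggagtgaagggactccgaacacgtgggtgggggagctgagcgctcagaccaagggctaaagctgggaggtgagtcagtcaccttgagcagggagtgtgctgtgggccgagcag
Atp5g2, chr15:102670998-102671297, minus strand: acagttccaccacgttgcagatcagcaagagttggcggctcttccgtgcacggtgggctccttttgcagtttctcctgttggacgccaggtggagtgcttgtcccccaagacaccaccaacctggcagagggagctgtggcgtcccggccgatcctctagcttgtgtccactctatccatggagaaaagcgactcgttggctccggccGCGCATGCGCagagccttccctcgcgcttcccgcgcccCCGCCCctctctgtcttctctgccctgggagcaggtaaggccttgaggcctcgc
Uqcrh, chr4:116075021-116075320, minus strand: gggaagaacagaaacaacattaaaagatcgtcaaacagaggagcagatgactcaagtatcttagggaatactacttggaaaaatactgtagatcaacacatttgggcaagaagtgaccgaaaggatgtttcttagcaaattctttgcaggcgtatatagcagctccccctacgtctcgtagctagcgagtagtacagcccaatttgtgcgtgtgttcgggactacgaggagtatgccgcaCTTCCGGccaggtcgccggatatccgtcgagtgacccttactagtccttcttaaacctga
Atp5j, chr16:84834927-84835226, minus strand: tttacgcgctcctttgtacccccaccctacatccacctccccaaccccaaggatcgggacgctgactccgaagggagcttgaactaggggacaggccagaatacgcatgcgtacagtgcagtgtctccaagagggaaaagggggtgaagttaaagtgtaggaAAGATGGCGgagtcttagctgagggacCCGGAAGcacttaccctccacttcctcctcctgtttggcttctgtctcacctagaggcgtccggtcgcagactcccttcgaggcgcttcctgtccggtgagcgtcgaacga
Cox6a1, chr5:115348909-115349208, minus strand: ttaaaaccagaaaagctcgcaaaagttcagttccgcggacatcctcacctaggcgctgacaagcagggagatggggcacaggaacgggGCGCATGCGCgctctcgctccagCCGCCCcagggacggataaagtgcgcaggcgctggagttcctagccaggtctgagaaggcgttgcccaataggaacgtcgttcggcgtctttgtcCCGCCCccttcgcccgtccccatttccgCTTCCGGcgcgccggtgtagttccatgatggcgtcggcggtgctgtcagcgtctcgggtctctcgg
No match was found in the Atp5g3 and Atp5g1 windows. The Atp5g2 window held 1 NRF1 and 1 SP1 match, the Uqcrh window 1 ETS match, the Atp5j window, which is 1 of its 2 annotated starts, 1 YY1 and 1 ETS match, and the Cox6a1 window 1 NRF1, 1 ETS and 2 SP1 matches. Among members with a window, the ETS motif stood in 3 of 14 called higher at 12 hours and in 12 of 31 tested and not called higher.

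At 12 hours against control, 19 of the 53 tested members were called higher (35.8%) and 1 was called lower (1.89%). Over all tested targets 21.8% were called higher and 21% lower, and 42.9% were called in all. The median log2 difference of the tested members was 0.20, beside -0.01 over all tested targets. The 19 members rose by 0.22 to 0.59 on the log2 scale, with the same sign on both arrays in each case, and for all 19 every 12-hour region exceeded every control region in the ratio to the negative probes. The calls rest on these same regions, so this is a description. Of the 33 members not called, 19 had the same sign on both arrays and 20 separated in that ratio too. In CPM after TMM scaling, the scale of the test, 9 of the 19 kept that separation. Of the 19, 13 met the detection criterion without the 12-hour and 24-hour regions. The counts include background, and on the TMM scale the negative probes differed from control by -0.41 at 12 hours. The log2 difference of a member near background is drawn toward that value, so a rise is understated and a fall can be overstated. The count of members called higher fell when the 12-hour sum of array 2 or either control sum was left out. The same count over all targets was not made for these fits, so a loss of calls over all targets cannot be told apart. With background subtracted 7 members (13.2%) were called higher, beside 18.2% of all targets, and with no array term 7 (13.2%), beside 16.2%. In the fits that leave out a sum, 1 group has a lone sum, which is assumed to vary like those of the other groups.

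The scaling matters for the size and sign of these differences. On the TMM scale the negative probes themselves differed by -0.41 at 12 hours and by -0.43 at 24 hours from control. Scaled to the negative probes instead, 46 of 53 members were called higher at 12 hours and 0 lower, where 59.6% of all tested targets were called higher. The member median was then 0.61, beside 0.40 over all tested targets. With no filter, all 78 members entered, and 33 were called higher and 1 lower at 12 hours, beside 13% and 6.66% of all 9780 targets. By region and in the ratio to the negative probes, 44 of 78 members lay above control in every 12-hour region, or 56.4%, beside 19.2% of all targets. In CPM after TMM scaling, 10 of 78 did, or 12.8%, beside 4.22% of all targets.

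**Figure D2:**
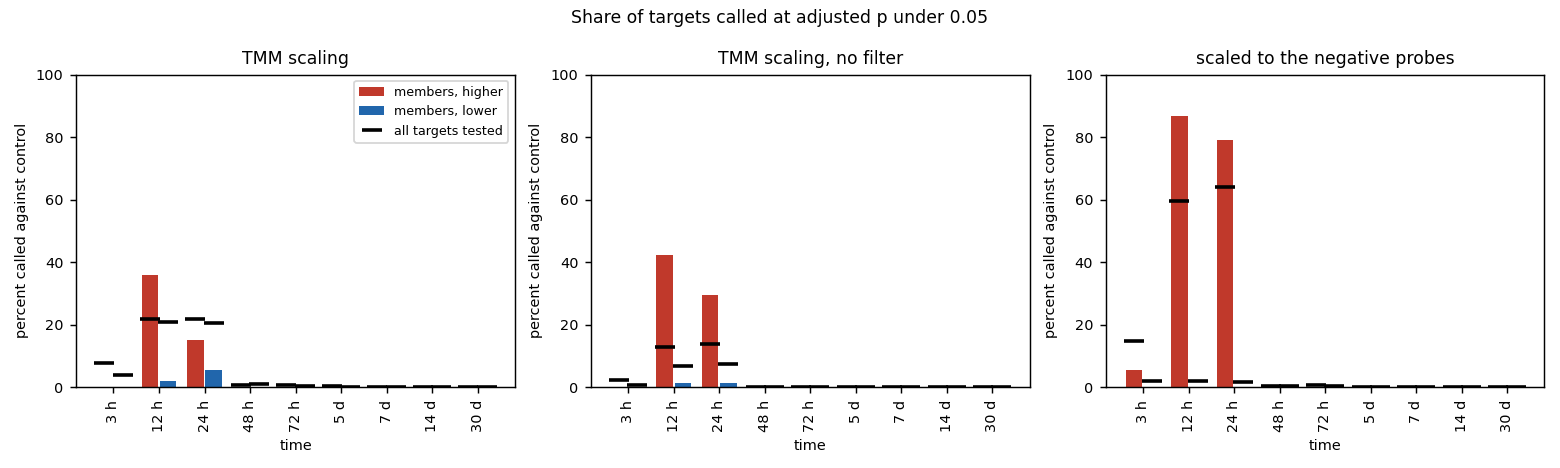
Share of members called higher or lower than control at each time (bars) and the same share over all targets tested (black dashes), in percent, with TMM scaling, with TMM scaling and no filter, and with scaling to the negative probes. At 12 hours the members' bar for higher stands above the dash in all 3 panels, at 35.8% against 21.8% with TMM scaling, and from 48 hours on the bars are at 0 in all 3 panels. With no filter, the members and all targets differ in the share above background.

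Complex I had 20 tested members, of which 7 were called higher and 1 lower at 12 hours, with a median log2 difference of 0.07. All 7 are accessory subunits, which surround the catalytic core. Of the 7, 5 met the detection criterion only through regions of 12 and 24 hours, namely Ndufb1, Ndufa2, Ndufa6, Ndufc2 and Ndufa3, and so did Ndufb11, the member called lower. For these genes the call is a description. The level of Ndufb1 ran from 1.51 to 2.24 with a median of 2.03 at 12 hours, against 0.898 to 1.20 with a median of 1.09 in control regions. The gene was thus at background in control pancreas. Ndufa7 met the criterion without those groups. Its level ran from 2.89 to 3.37 with a median of 3.20 at 12 hours, against 1.57 to 2.21 with a median of 1.95 in control regions, and it rose by 0.37 ± 0.11 (log2, SE; edgeR adjusted p = 0.0165). The groups of Ndufa7 did not overlap in level or in CPM.

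Ndufa2, another accessory subunit, ran from 2.09 to 2.74 with a median of 2.50 at 12 hours and from 1.27 to 1.61 with a median of 1.43 in control regions. All 12-hour regions were above all control regions in this ratio, and in CPM after TMM scaling the groups overlapped. Ndufs5, which met the criterion without the 12-hour and 24-hour regions, was called higher by 0.33 on the log2 scale. The core subunits Ndufs3, Ndufs7 and Ndufs8, which carry or flank the iron-sulphur clusters of the electron path, were tested and not called at 12 hours.

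Ndufb11, an accessory subunit of the membrane arm, was the member called lower at 12 hours, by -0.25 ± 0.10 (log2, SE; edgeR adjusted p = 0.0498), and the sign turned to 0.17 when scaled to the negative probes and to 0.33 when scaled to the total count. Its level over the negative probes ran from 1.77 to 2.3 at 12 hours and from 1.5 to 1.83 in control regions. These ranges overlapped, and the direction of Ndufb11 depends on the scaling.

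Complex II had 3 tested members, and none was called at 12 hours. Sdhb, its iron-sulphur subunit, had a level of 2.11 ± 0.134 at 12 hours (SD, n = 6) against 1.72 ± 0.139 in control regions (SD, n = 7), with a TMM log2 difference of -0.09 ± 0.10 (SE; edgeR adjusted p = 0.487). Sdha, the flavoprotein, had a level of 1.82 ± 0.147 at 12 hours (SD, n = 6) against 1.42 ± 0.189 in control regions (SD, n = 7). The level of Sdhd, a membrane anchor, was 2.04 ± 0.226 at 12 hours and 1.67 ± 0.156 at 24 hours (SD, n = 6 each) and 1.51 ± 0.148 in control regions (SD, n = 7). At 24 hours it was called lower than control on the TMM scale, by -0.25 ± 0.09 (log2, SE; edgeR adjusted p = 0.0305), while scaled to the negative probes the value was 0.18. The direction of Sdhd at 24 hours thus depends on the scaling.

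Complex III had 4 tested members, of which 2 were called higher at 12 hours. Uqcrh, the hinge subunit near the cytochrome c docking site, had a level that ran from 3.71 to 5.33 with a median of 4.76 at 12 hours, against 2.28 to 3.25 with a median of 2.48 in control regions. The groups did not overlap in level and overlapped in CPM after TMM scaling, and Uqcrh rose by 0.45 ± 0.16 (log2, SE; edgeR adjusted p = 0.0292). On array 1 alone the difference was 0.26 and on array 2 alone 0.63. Uqcrb, a small matrix-facing subunit, ran from 2.74 to 3.34 at 12 hours and from 1.76 to 2.03 in control regions, with a difference of 0.28 ± 0.11 (log2, SE; edgeR adjusted p = 0.0494). Uqcr11 and Uqcrq were not called at 12 hours.

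Complex IV had 12 tested members, of which 5 were called higher at 12 hours and none lower, with a median log2 difference of 0.30. Cox4i1, the ubiquitous isoform of the regulatory subunit IV, led. Its level ran from 2.58 to 3.51 with a median of 3.1 at 12 hours, against 1.44 to 2.02 with a median of 1.60 in control regions, and the difference was 0.48 ± 0.13 (log2, SE; edgeR adjusted p = 0.00799). Cox7c had a level of 2.94 ± 0.214 at 12 hours (SD, n = 6) against 1.77 ± 0.233 in control regions (SD, n = 7). The 12-hour regions of both genes lay above every control region in level and not in CPM after TMM scaling. Ndufa4, Cox7b and Cox5b were called higher too, by 0.35, 0.35 and 0.31 on the log2 scale.

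In the isoform families of complex IV, Cox6a1, Cox7a2 and Cox8a exceeded 2 times background in 52, 50 and 53 of the 57 regions. Cox7b, Cox4i1, Cox7a2l and Cox6b1 did so in 21, 16, 12 and 9 regions. The tissue-restricted forms Cox6a2, Cox7a1 and Cox7b2 did so in no region. Cox6a1, the form of most tissues, had a level of 3.61 ± 0.278 at 12 hours (SD, n = 6) against 2.17 ± 0.331 in control regions (SD, n = 7). Its heart and muscle counterpart Cox6a2 had 1.17 ± 0.198 at 12 hours (SD, n = 6) against 1.29 ± 0.131 in control regions (SD, n = 7) and exceeded 2 times background in no region. Cox7a2 likewise had 3.57 ± 0.408 at 12 hours (SD, n = 6) against 2.28 ± 0.389 in control regions (SD, n = 7), while its muscle counterpart Cox7a1 stayed between 0.921 and 1.65 over all 57 regions. Cox7b2, known from testis, stayed between 1.06 and 1.85. Cox8a, the form of most tissues, had 3.29 ± 0.345 at 12 hours (SD, n = 6) against 2.26 ± 0.209 in control regions (SD, n = 7). The 12-hour differences of Cox6a1, Cox7a2 and Cox8a did not pass the TMM test, with edgeR adjusted p-values of 0.0685, 0.110 and 0.498, and all 3 passed it when scaled to the negative probes.

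Complex V had 14 tested members, of which 5 were called higher at 12 hours and none lower. Atp5a1, the alpha subunit of the catalytic head, gave the largest difference of all members. Its level ran from 3.58 to 4.42 with a median of 3.84 at 12 hours, against 1.66 to 2.28 with a median of 2.04 in control regions. No region overlapped on either scale, and the gene rose by 0.59 ± 0.14 (log2, SE; edgeR adjusted p = 0.00430). Atp5b, the catalytic beta subunit of the same head, had 4.11 ± 0.503 at 12 hours (SD, n = 6) against 2.77 ± 0.553 in control regions (SD, n = 7). Its TMM difference of 0.20 ± 0.20 was not called (log2, SE; edgeR adjusted p = 0.453). Atp5e, Atp5mpl and Atp5j, which encode small subunits, rose by 0.31, 0.27 and 0.24 on the log2 scale, and Atp5j met the detection criterion only through regions of 12 and 24 hours.

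Of the 3 genes of the ring subunit, Atp5g3 was called higher at 12 hours, and the call for Atp5g2 depends on the filter. Atp5g3 ran from 4.13 to 4.83 with a median of 4.43 at 12 hours, against 1.75 to 2.44 with a median of 2.25 in control regions, and rose by 0.58 ± 0.14 (log2, SE; edgeR adjusted p = 0.00418). Atp5g2 had 2.37 ± 0.366 at 12 hours (SD, n = 6) against 1.58 ± 0.189 in control regions (SD, n = 7), with a TMM difference of 0.17 ± 0.10 that was not called (log2, SE; edgeR adjusted p = 0.168). With no filter the difference of Atp5g2 was 0.38 and was called (edgeR adjusted p = 0.0201), and all its 12-hour regions lay above control in level. Atp5g1 had 3.35 ± 0.797 at 12 hours (SD, n = 6) against 2.64 ± 0.357 in control regions (SD, n = 7), the groups overlapped, and the TMM difference was -0.06 ± 0.15 (log2, SE; edgeR adjusted p = 0.762). With no filter it was 0.15 and was not called either (edgeR adjusted p = 0.550). The means of Atp5g1 from 3 hours to 30 days ran from 2.78 to 3.52. In the test of any difference among the 10 groups, Atp5g1 and Atp5g3 were both called (edgeR adjusted p = 0.0451 and 0.0145), and Atp5g1 was no longer called when scaled to the negative probes (edgeR adjusted p = 0.380). Whether the courses of Atp5g1 and Atp5g3 differ was not tested.

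**Figure D3:**
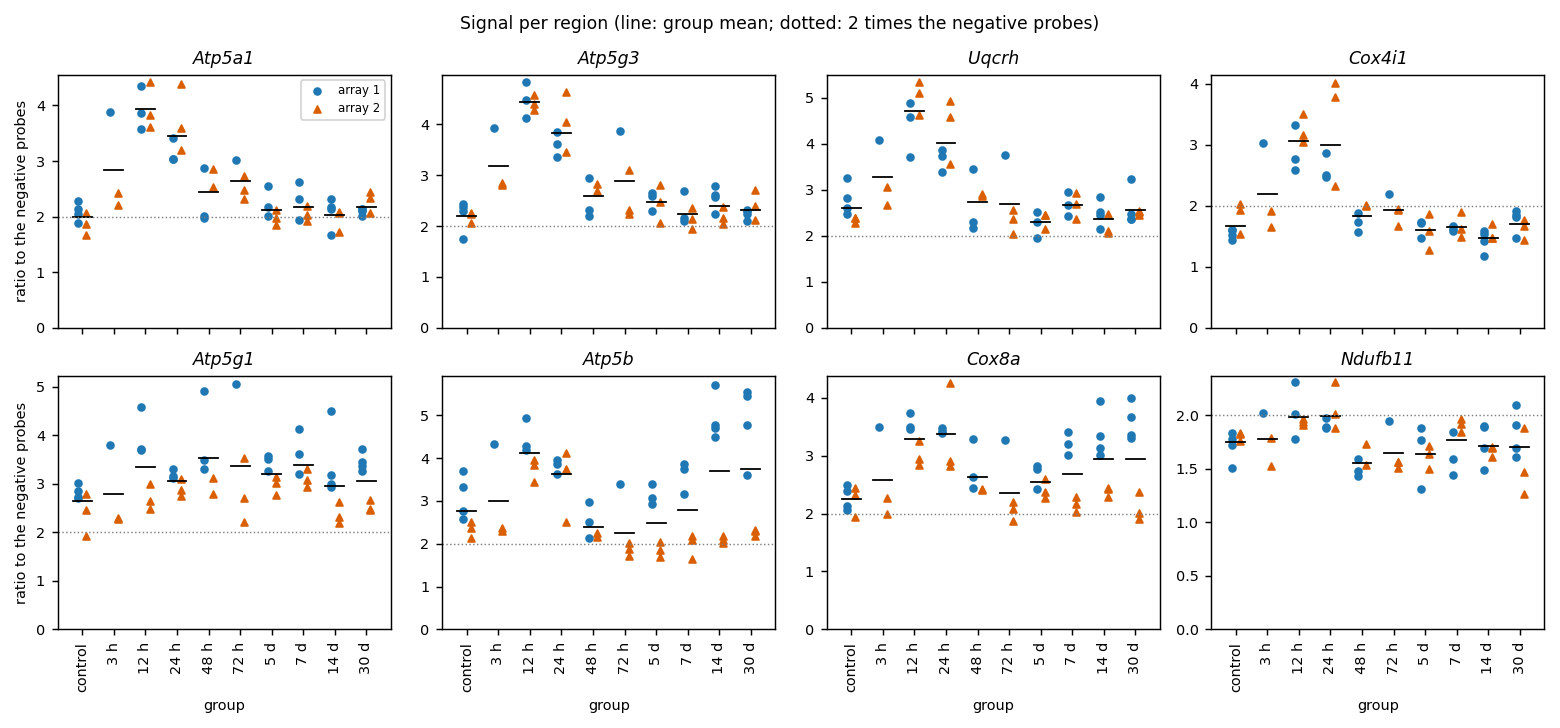
Level of 8 members in each of the 57 regions, as the ratio of the count to the negative probes, by group, with circles for array 1, triangles for array 2 and a line at the group mean. Atp5a1, Atp5g3, Uqcrh and Cox4i1 stand apart from control at 12 hours, Atp5g1 and Ndufb11 do not, and Atp5b and Cox8a split by array at 14 and 30 days.

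At 24 hours against control, 8 of 53 members were called higher (15.1%) and 3 lower (5.66%), beside 21.8% and 20.5% of all tested targets (42.3% in all), so with TMM scaling and the filter the member share called higher was below that of all targets. With no filter, where members and all targets differ in detection, the order was the other way. Of 78 members 23 were then called higher (29.5%), beside 13.8% of all targets. With TMM scaling and the filter, the median log2 difference was 0.09 for members and 0.0022 for all tested targets. Fewer members were called higher without the 24-hour sum of array 2 or without either control sum, and no share over all targets was taken for these fits. The 8 were Ndufa2, Ndufa7 and Ndufc2 of complex I, Cox4i1, Cox6c and Cox7c of complex IV, and Atp5a1 and Atp5g3 of complex V. Ndufa2, Ndufc2, Cox6c and, among those called lower, Ndufb11 and Ndufb2 met the detection criterion only through regions of 12 and 24 hours. Cox6c, a small membrane subunit, had a level of 2.22 ± 0.390 at 24 hours and 2.02 ± 0.311 at 12 hours (SD, n = 6 each) against 1.28 ± 0.0760 in control regions (SD, n = 7). Cox4i1 had 2.99 ± 0.728 at 24 hours (SD, n = 6), with a difference of 0.45 ± 0.13 (log2, SE; edgeR adjusted p = 0.0109). Ndufb11, Ndufb2 and Sdhd were called lower with TMM scaling, and all 3 had positive values when scaled to the negative probes. Under that scaling 42 of 53 members (79.2%) were called higher at 24 hours and 0 lower, beside 64.1% of all tested targets called higher.

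**Figure D4:**
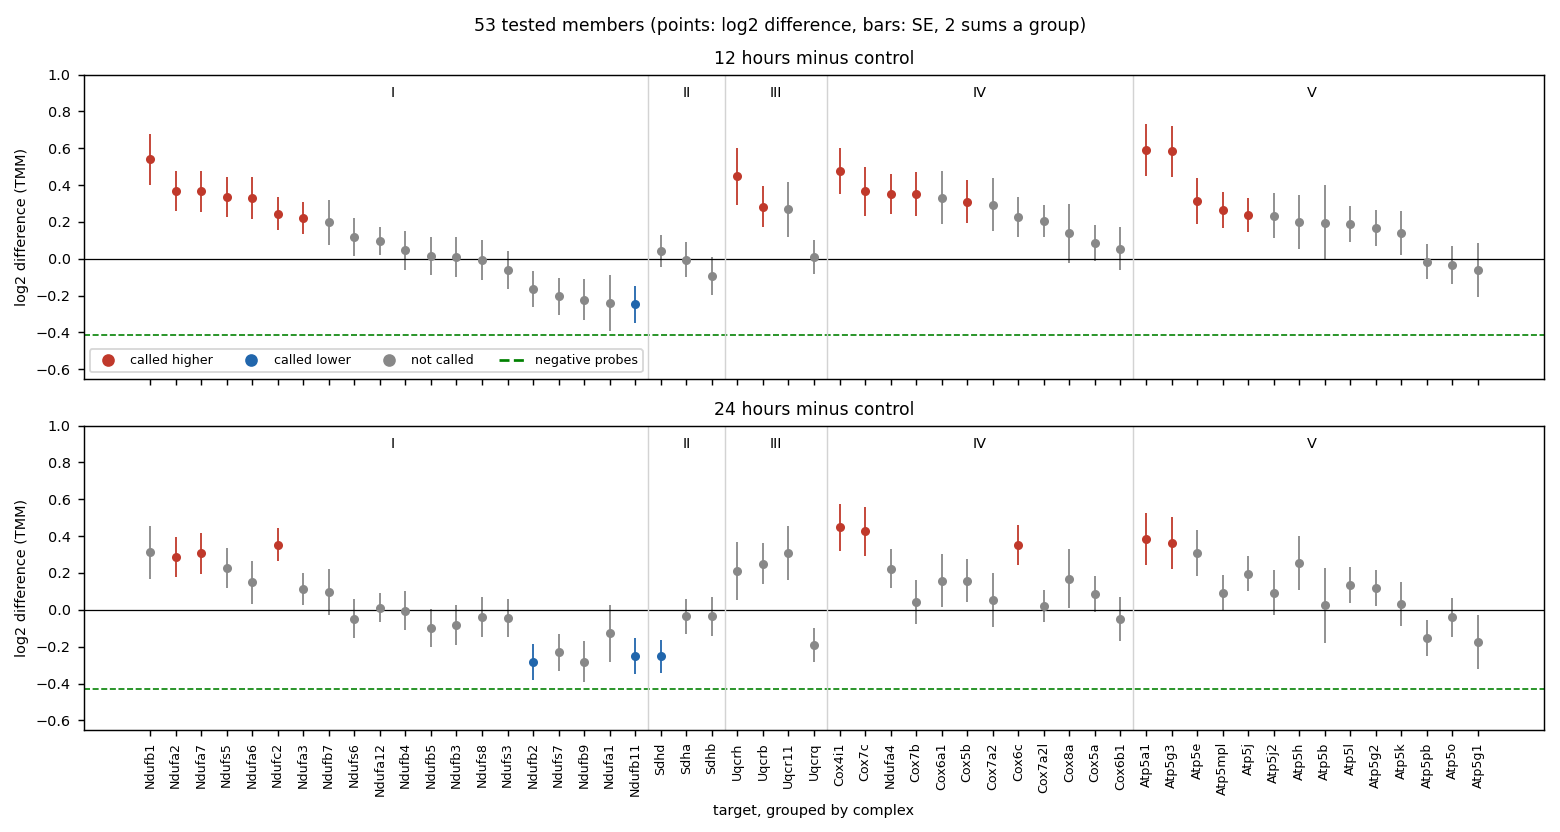
Log2 difference from control of the 53 tested members at 12 hours (upper panel) and 24 hours (lower panel), TMM scaling, with SE bars, grouped by complex. Red points were called higher and blue points lower at an edgeR adjusted p under 0.05, and the dashed line is the negative probes, at -0.41 at 12 hours and -0.43 at 24 hours. All member points lie above that line.

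Against 30 days in place of control, the 24-hour sums gave 6 members called higher and 4 lower, beside 21.1% and 20.3% of all tested targets (41.4% in all). Fewer members were called without the 24-hour sum of array 2 or without either 30-day sum, again with no share over all targets taken. Ndufc2, Cox4i1, Cox6c and Cox7c were called higher in this comparison as well as against control, and Uqcr11 and Atp5h in addition. Ndufc2, Cox6c and Atp5h, and among those called lower Ndufb2 and Uqcrq, met the detection criterion only through regions of 12 and 24 hours. Both comparisons use the same 24-hour sums. Cox7c had 3.08 ± 0.362 at 24 hours (SD, n = 6) and 1.75 ± 0.252 at 30 days (SD, n = 7). Ndufb2, Ndufb9, Sdhd and Uqcrq were called lower, and their values were 0.05, 0.02, 0.05 and 0.15 when scaled to the negative probes.

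At the other times edgeR called 0 members. Without the 3-hour sum of array 2, some members were called higher at 3 hours, with no share over all targets taken for that fit. At 3 hours 11.4% of all tested targets were called, and 0 of 53 members were, with 5 at an unadjusted p under 0.05. Of all tested targets, 1.67% were called at 48 hours and 1.08% at 72 hours. The 5-day share was 0.372%, that of the 7-day and 30-day groups 0.0372% each and the 14-day share 0.0%. At an unadjusted p under 0.05 there were 3 members for the 48-hour group, 7 for 72 hours, 1 for the 5-day group, 3 for the 7-day group and 0 for either later group. DESeq2 called 0 members at these times. At 3 hours the array 1 sum held 1 region, in which the level of Atp5a1 was 3.88, beside 2.20 and 2.43 in the array 2 regions. That array 1 region held 1751 targets over 2 times background, and the array 2 regions held 673 and 805. The array 1 sum at 72 hours held 1 region too, with 1265 targets over 2 times background, beside 811, 621 and 590 in the array 2 regions. The test of any difference among the 10 groups called 9 of 53 members, or 17%, beside 42.1% of all tested targets. Leaving out the 12-hour or the 24-hour sum of array 2 lowered this count, and leaving out the 3-hour sum of array 2 raised it. No share over all targets was taken for these fits. The 9 were Ndufa6, Ndufb9, Sdhd, Uqcrh, Cox4i1, Cox7c, Atp5a1, Atp5g1 and Atp5g3.

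The array made a difference for several members, a smaller share than over all tested targets. In the same fit, 11 of 53 members (20.8%) were called lower on array 2 than on array 1 and 0 higher. Of all tested targets 28.9% were called, 451 of them lower and 327 higher. Atp5b differed most, by -0.58 ± 0.09 (log2, SE; edgeR adjusted p = 0.000167). At 30 days its level was 3.6 to 5.55 in the 4 regions of array 1 and 2.18 to 2.32 in the 3 regions of array 2, and at 14 days it was 4.49 to 5.71 on array 1 and 2.01 to 2.19 on array 2. In control regions it was 2.58 to 3.71 on array 1 and 2.14 to 2.52 on array 2. Cox8a and Atp5g1 were lower on array 2 too, by -0.30 and -0.34 on the log2 scale. A dependence of the array difference on time was not tested, and whether the arrays differ in animals, position or handling cannot be told apart.

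Other pathways of energy metabolism were described from lists of named genes. Of 10 tested glycolysis genes 7 were called higher at 12 hours and none lower, beside 21.8% of all tested targets called higher, with a median log2 difference of 0.51. At 3 hours 5 of the 10 were called higher and none lower, beside 7.66% of all tested targets called higher, and at 24 hours 5 were called higher and 1 lower. Aldoa (aldolase), Pkm (pyruvate kinase) and Ldha (lactate dehydrogenase) rose by 0.81, 0.77 and 0.72 on the log2 scale. Ldha had a level of 2.96 ± 0.269 at 12 hours (SD, n = 6) against 1.34 ± 0.0540 in control regions (SD, n = 7). The difference between glycolysis and respiratory chain genes was not tested.

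Among partners of the chain, Atpif1, the inhibitor of ATP hydrolysis by complex V, had 3.17 ± 0.413 at 12 hours (SD, n = 6) against 1.32 ± 0.129 in control regions (SD, n = 7) and rose by 0.80 ± 0.11 (log2, SE; edgeR adjusted p = 8.00e-05). It was the 1 partner of 6 tested that was called higher, and Coq9 and Chchd10 were called lower on the TMM scale. The carriers Slc25a3, which imports phosphate for ATP synthesis, and Vdac3, an outer membrane channel, were 2 of 3 tested and rose by 0.57 and 0.48 on the log2 scale. Of the tricarboxylic acid cycle 2 of 15 measured genes were tested, and Mdh2, malate dehydrogenase, rose by 0.45. Of 12 tested chaperone and import genes Hspe1 was called higher by 0.42, and Tomm6 and Tomm20 lower on the TMM scale. Of 5 tested assembly factors Cox17, the copper chaperone of complex IV, was called higher by 0.33, and Coa5, Ndufaf8 and Sdhaf1 lower on the TMM scale. Coa5 had 20.8 ± 8.26 at 12 hours (SD, n = 6) against 30.2 ± 3.42 in control regions (SD, n = 7). Of 17 tested proteins of the large mitochondrial ribosomal subunit 3 were called higher and 4 lower, beside 21.8% and 21% of all tested targets. Scaled to the negative probes, no gene of these lists was called lower at 12 hours. None of the 6 measured regulators of mitochondrial biogenesis was high enough to be tested.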

How the data were processed

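Regions of mouse pancreas were read with the GeoMx Whole Transcriptome Atlas. Per the file headers, reads were processed with the GeoMx NGS Pipeline 2.3.3.10, and the submitters' processing notes name limma and mm10. The authors deposited expected counts per target, deduplicated and averaged where a target has several probes, after their probe and region quality control. They also deposited a signal table scaled to the 75th percentile, a normalisation ratio and a limit of quantitation signal per region, counts of nuclei and reads, the percent sequencing saturation (94.6 to 96.3), and an outlier score per probe. Of 210 negative probes listed in the deposited probe table, 209 were not outliers.

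Counts were summed per group and array, rounded, and tested in R 4.3.3 by the quasi-likelihood test of edgeR 4.0.16, with TMM scaling, terms for group and array and all groups in 1 fit. P-values were adjusted by Benjamini-Hochberg over the 2688 targets that 3 or more of the 57 regions held above 2 times background. The array term was tested in the same fit. The script was tested on simulated data. Alternatives used limma 3.58.1 and DESeq2 1.42.0, other scalings, filters and samples. The members and lists were chosen with earlier results of these data known. Named are any member with its level, every called member with up to 8 in depth, isoform families, and up to 3 called genes per list. The lists cover assembly factors, chain partners, the tricarboxylic acid cycle, carriers, chaperones and import, biogenesis regulators, the large mitochondrial ribosomal subunit, glycolysis, and markers of acinar, ductal, islet, macrophage, fibroblast, endothelial, adipocyte, muscle and red blood cells.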

Additional observations from a re-analysis of the deposited data

Results flagged for a closer look

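Of 54 tests for a region far from the others of its group, 5 met the criterion, and chance gives about 1 in 20. At 48 hours 1 region of array 1 was high, with a mean level of 2.01 times background over all members, 1.79 over complex I and 2.19 over complex IV. These flags share 1 region and overlap in genes. That region held 1769 targets over 2 times background, against 667 to 835 in the other 48-hour regions, so it was not high for the members alone. At 5 days 1 region of array 1 had a mean complex I level of 1.57, and at 14 days 1 region of array 1 had a mean complex III level of 2.02.

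In 5 of 54 comparisons the regions of the arrays lay on opposite sides of their controls, and these differences were not tested. At 14 days the mean log2 difference of the level from control was 0.17 on array 1 and -0.067 on array 2 over all members, 0.18 and -0.052 over complex I, and 0.21 and -0.13 over complex IV. At 3 hours it was 0.26 on array 1 and -0.094 on array 2 over complex II. At 30 days it was 0.12 on array 1 and -0.043 on array 2 over complex IV.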

How the results depend on the processing

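The count of members called higher at 12 hours (19) was 7 with background subtracted, 7 with no array term, 10 with the filter at 10 regions, 33 with no filter, 33 over the limit of quantitation, 30 scaled to the 75th percentile, 46 scaled to the negative probes and 52 scaled to the total count. In the same order the member share was 13.2%, 13.2%, 28.6%, 42.3%, 42.9%, 56.6%, 86.8% and 98.1%, beside 18.2%, 16.2%, 26.8%, 13%, 14%, 35.1%, 59.6% and 73% of all targets, so with background subtracted and with no array term it was below that of all targets. At 24 hours (8) these settings gave 3, 3, 3, 23, 22, 19, 42 and 52, and regions as samples gave 18, or 16 with a replicate block. The member shares were then 5.66%, 5.66%, 8.57%, 29.5%, 28.6%, 35.8%, 79.2%, 98.1%, 34% and 30.2%. Those of all targets were 17%, 15.4%, 25.2%, 13.8%, 14.8%, 33.9%, 64.1%, 76.2%, 29.4% and 28.9%. Against 30 days (10 called) the settings gave 5 with no array term, 4 at 10 regions, 25 with no filter, 23 over the limit of quantitation, 16 at the 75th percentile, 38 with the negative probes, 44 with the total count, 23 with regions as samples and 24 with the replicate block. The member shares were 9.43%, 11.4%, 32.1%, 29.9%, 30.2%, 71.7%, 83%, 43.4% and 45.3% in that order. Those of all targets were 26.5%, 50.7%, 22.2%, 24.9%, 44.5%, 63.7%, 68.9%, 62.2% and 60.5%. For any difference (9) the settings gave 5 with background subtracted, 2 with no array term, 28 with no filter, 26 over the limit of quantitation, 23 at the 75th percentile, 39 with the negative probes, 47 with the total count, 38 with regions as samples, 40 with the replicate block and 19 with voom. The member shares were 9.43%, 3.77%, 35.9%, 33.8%, 43.4%, 73.6%, 88.7%, 71.7%, 75.5% and 35.8% in that order. Those of all targets were 38.2%, 21.8%, 20.1%, 22.9%, 43.2%, 58.1%, 74.7%, 78.9%, 78.6% and 54.4%. Where no member was called, regions as samples gave 2 each for the 3-hour, 72-hour, 7-day and 30-day groups and 1 each for the 48-hour and 14-day groups. A count of 2 is 3.77% of the tested members and a count of 1 is 1.89%. In the order of the groups, 14.2%, 4.69%, 3.61%, 2.86%, 7.66% and 3.24% of all targets were called higher. The replicate block gave 4 for 3 hours and 2 for 72 hours, voom 2 and 1 for the same groups, the negative probes 3 for 3 hours, and the total count 29 for 3 hours, 42 for 48 hours and 36 for 72 hours. In that order the member shares were 7.55%, 3.77%, 3.77%, 1.89%, 5.66%, 54.7%, 79.2% and 67.9%. Those of all targets were 18.7%, 4.2%, 11.8%, 2.9%, 14.9%, 47.4%, 74.2% and 55.8%. In the fits with regions as samples, with or without the replicate block, regions of 1 animal may be counted apart. Their p-values may therefore be too small.

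Leaving out 1 sum at a time gave 2 to 16 at 12 hours, 0 to 10 at 24 hours, 0 to 5 at 3 hours, 0 to 11 for 24 hours against 30 days and 3 to 14 for any difference. The member median minus that of all targets at 12 hours, 0.21, then ran from 0.11 to 0.27. The 12-hour level over control, 1.43, was 1.08 in CPM and 2.21 after 1 was subtracted from each ratio. Scaled to the negative probes and to the total count, lower calls turned to 0.17 and 0.33 for Ndufb11 at 12 hours, and at 24 hours to 0.19 and 0.34 for Ndufb11, 0.16 and 0.31 for Ndufb2, and 0.18 and 0.34 for Sdhd. Against 30 days they turned to 0.050 and 0.14 for Ndufb2, 0.024 and 0.11 for Ndufb9, 0.053 and 0.14 for Sdhd, and 0.15 and 0.24 for Uqcrq. The cause was not tested. Replicate numbers were not taken as pairs: 153 of 223 same-numbered pairs correlated above 0.1, and on the same array the median correlation was 0.249 for the same number and 0.227 for other numbers.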
